A study of Mus musculus with 12 samples.

Results

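CD4+ T cells normally keep the genes of connective tissue, nerve, and skin switched off. Here, 82 genes that were silent in WT cells were read in every library of the DKO-severe mice, out of 26608 genes listed in the count files. Not all 82 belong to such tissues: 15 are of broader expression and 10 were not assigned to a tissue. A gene was a member when it had at most 4 reads summed over the 4 WT libraries and at least 1 CPM in each of the 4 DKO-severe libraries. CPM is reads on a gene per 1000000 reads on all genes of the same library. The members were therefore chosen by their measured values in WT and DKO-severe, and the difference between those groups is described below without a test. The DKO-moderate libraries had no part in the choice. The 82 members were 0.728% of the 11262 genes that reached 1 CPM in every DKO-severe library, and 11397 genes in all were silent in WT.

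The cells were CD4+ YFP(FOXP3)- T cells, in which YFP marks cells that make FOXP3, sorted from spleen pooled with cervical and inguinal lymph nodes at 14 weeks of age. WT stands for *Foxp3Cre* WT mice, which carry the Cre allele and intact *Tet2* and *Tet3*. DKO-moderate and DKO-severe are *Foxp3-Cre Tet2/3fl/fl* mice, separated by how many cells their spleen and lymph nodes held. The floxed alleles are removed only where *Foxp3-Cre* has been active, so a sorted YFP- population can mix cells with and without the deletion. The paper describes the WT cells as mostly naive, that is, not yet activated. It describes most T cells of the DKO mice, above all DKO-severe, as activated or memory cells. Silence in WT is thus silence in a largely naive population, and the part of cell state in the members' levels was not tested. Each group had 4 libraries of bulk RNA, numbered as separate samples, and p-values measure the spread between these samples.

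TET2 and TET3 oxidize 5-methylcytosine, a mark placed mainly on cytosines that precede a guanine (CpG), and thereby help to remove it. Genes of other lineages are held silent in T cells through DNA methylation, repressive chromatin, and the absence of the factors that drive them. In tissues, such genes build the extracellular matrix between fibroblasts, connect neurons, or form the cornified layer of skin. In bulk RNA, a few cells with many transcripts and many cells with few cannot be told apart, which holds for every level below.

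Reads on genes ranged from 29254260 to 42133536 per library, so 1 read was worth 0.0237 to 0.0342 CPM. A list of general T cell genes summed to between 3852 and 5126 CPM in all 12 libraries. Libraries stood apart in markers of other cells. Neutrophil markers summed to 2478 and 963 CPM in DKO-severe 1 and 2 but to 49.8 and 31.9 CPM in DKO-severe 3 and 4, and to at most 41.5 CPM in the other groups. Most of the sum in WT and DKO-moderate was *Mmp9*, with means of 11.6 and 16.5 CPM. B cell markers summed to 234 CPM in WT 3 and 452 CPM in DKO-severe 2, and to at most 111 CPM elsewhere. Other lists were higher in every DKO-severe library than in every DKO-moderate library, as the members were in sum. Monocyte and macrophage markers summed to 184 to 647 CPM in DKO-severe, 64.2 to 154 CPM in DKO-moderate, and 17.8 to 44.1 CPM in WT apart from WT 3 (240 CPM). Erythroid markers summed to 11.9 to 39.0 CPM in DKO-severe, 1.01 to 7.01 CPM in DKO-moderate, and at most 1.27 CPM in WT apart from WT 3 (15.3 CPM). Plasma cell markers went from 276 to 298 CPM in WT to 350 to 520 CPM in DKO-moderate and 619 to 777 CPM in DKO-severe, and germinal centre B cell markers from 60.4 to 79.9 CPM to 85.5 to 163 CPM and 180 to 237 CPM. Of these genes, *Irf4* (303 CPM) and *Bcl6* (139 CPM) had the highest DKO-severe means of their lists. Without DKO-severe 1 and 2, the rule gave 129 genes, and without WT 3 it gave 124. Both sets held all 82 members, because leaving out a library can only loosen the rule. The part of these other cells in the members' levels was not tested.

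The members were not a single locus. They lay on 20 chromosomes, with at most 10 on any of them, and only 2 pairs were within 100 kb of each other. *Dcn* and *Lum* were 47.0 kb apart on chromosome 10, and *Ivl* and *Lce1a1* 72.8 kb apart on chromosome 3. By GENCODE M21 (GRCm38, the assembly of mm10), 79 members were protein coding, 2 were antisense transcripts, and 1 was a long intergenic RNA.

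Because TET enzymes act on methylated CpG, the 250 bases before the start of 4 members are shown, with each CG in capitals (RefSeq, GRCm38.p6, 5′ to 3′ on the gene's strand). *Twist1* and *Twist2* are sister transcription factor genes that were both members, *Pdgfra* is a marker of fibroblasts, and *Ivl* encodes the skin protein involucrin. The windows are chr12:33957421-33957670 on the plus strand, chr1:91801211-91801460 on the plus strand, chr5:75152001-75152250 on the plus strand, and chr3:92573736-92573985 on the minus strand, in the order printed.
Twist1: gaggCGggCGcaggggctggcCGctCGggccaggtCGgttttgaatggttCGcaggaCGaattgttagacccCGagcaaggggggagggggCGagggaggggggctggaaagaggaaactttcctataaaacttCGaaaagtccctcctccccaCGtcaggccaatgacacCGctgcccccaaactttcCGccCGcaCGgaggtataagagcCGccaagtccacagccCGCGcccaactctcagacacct
Twist2: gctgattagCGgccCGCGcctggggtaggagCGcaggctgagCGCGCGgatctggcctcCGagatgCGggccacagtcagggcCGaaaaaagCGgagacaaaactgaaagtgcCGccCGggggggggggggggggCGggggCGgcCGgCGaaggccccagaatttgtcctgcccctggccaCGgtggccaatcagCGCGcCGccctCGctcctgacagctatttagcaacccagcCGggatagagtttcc
Pdgfra: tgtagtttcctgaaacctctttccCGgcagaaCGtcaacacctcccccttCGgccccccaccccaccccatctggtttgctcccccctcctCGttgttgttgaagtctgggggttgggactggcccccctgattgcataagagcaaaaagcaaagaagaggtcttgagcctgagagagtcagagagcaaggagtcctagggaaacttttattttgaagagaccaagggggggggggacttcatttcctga
Ivl: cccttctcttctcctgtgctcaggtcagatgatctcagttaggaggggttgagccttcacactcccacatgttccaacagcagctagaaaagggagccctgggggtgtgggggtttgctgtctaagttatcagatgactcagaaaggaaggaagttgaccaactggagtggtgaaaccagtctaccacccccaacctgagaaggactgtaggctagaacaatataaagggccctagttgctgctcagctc

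These stretches held 18, 23, 4, and 0 CG in that order, so the members included both CpG-rich starts and a start without any CG. Over all 32851 windows of the RefSeq table, 92.1% held at least 1 CG in the same stretch, with a median of 6. A comparison of members with other genes is void, because 60 of the 82 members (73.2%) had a window and at least 80% were needed. Methylation itself was not measured in these libraries.

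In WT, the members together had 119 reads, with 10, 11, 48, and 50 in the 4 libraries. No read was counted in any WT library for 34 members, where 3 reads over the pooled WT libraries would be 0.0206 CPM, a limit that covers counting error only. In DKO-severe the same 82 genes had 166192 reads and summed to 1233, 601, 1528, and 1323 CPM. In DKO-moderate they had 27810 reads and summed to 49.8, 408, 119, and 230 CPM. Every DKO-moderate library lay between the groups, above all WT libraries (0.271 to 1.31 CPM) and below all DKO-severe libraries. The rule chose members low in WT and high in DKO-severe, so this order is a description and not independent evidence. The counterpart rules found nothing: no gene that was silent in DKO-severe or in DKO-moderate reached 1 CPM in every WT library.

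**Figure D1:**
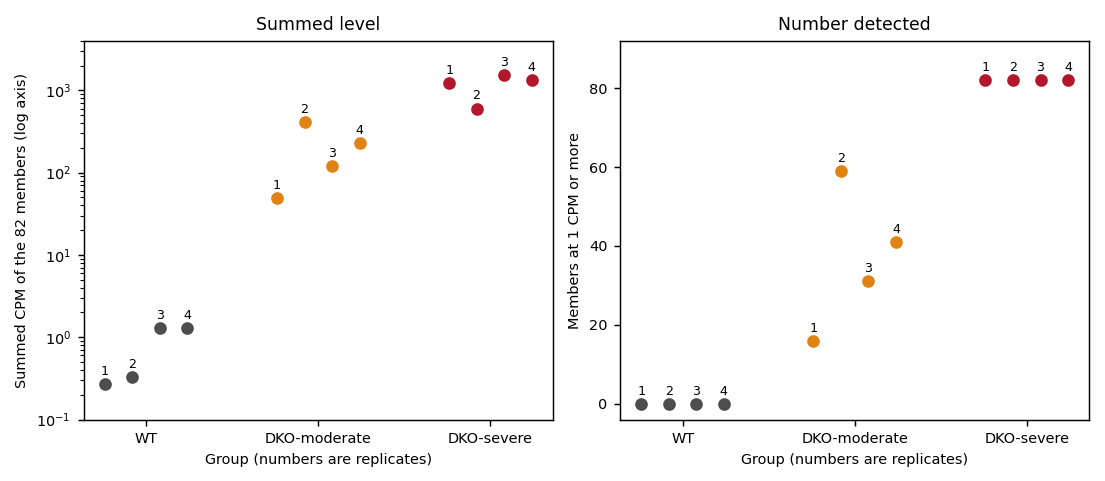
Summed CPM of the 82 members on a log axis (left) and number of members at 1 CPM or more (right), with 1 point per library and the replicate number above it. The WT sums are 0.271 to 1.31 CPM, the DKO-moderate sums 49.8 to 408 CPM, and the DKO-severe sums 601 to 1528 CPM. All 82 members reach 1 CPM in each DKO-severe library because the rule requires it.

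Mean levels in DKO-severe ran from 1.32 to 102 CPM per member, with a median of 9.67 CPM. Of these, 39 members reached a mean of 10 CPM, 3 reached 50 CPM, and only *Sdc2* reached 100 CPM. The median gene that was on in every DKO-severe library had 39.2 CPM, and 5 members were above it. The 10 members with the most reads carried 43.2% of all member reads in DKO-severe. Per kilobase of exon, the highest DKO-severe means were 32.0 CPM for *Msc*, 28.9 for *Sdc2*, and 14.9 for *Tmem45a*, and the lowest was 0.174 for *Hdx*.

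Nearest to the limits from inside were *Hdx*, *Prss57*, and *C1s*, whose lowest DKO-severe libraries had 1.03, 1.03, and 1.06 CPM, and 13 members at exactly 4 WT reads. Just outside were *Ugt1a6a*, *S100a5*, and *Rasl10a*, with lowest DKO-severe values of 0.996, 0.952, and 0.952 CPM, and *Acy3*, *Amotl1*, and *Apol11b*, with 5 WT reads each. A further 41 genes on in DKO-severe had 5 to 10 WT reads, so the members had no sharp edge.

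The member with the highest DKO-severe mean, *Sdc2*, was a matrix gene. The 11 members that make or organize extracellular matrix included *Sdc2*, *Spon1*, *Hapln1*, *Dcn*, *Thbs2*, *Frem2*, *Lum*, *Col12a1*, 9930013L23Rik (*Cemip*), and *Col6a2*, with a median DKO-severe mean of 15.9 CPM. Classes here and below were assigned from general knowledge of the genes after their values had been seen. *Sdc2* (chromosome 15, 32920723 to 33034935, plus strand, in GRCm38 as for all positions given), a heparan sulfate proteoglycan of the cell surface, had 165, 33.5, 116, and 93.1 CPM in the DKO-severe libraries, 1.99, 9.22, 16.6, and 4.30 CPM in DKO-moderate, and 4 reads in WT. The lowest DKO-severe library was above the highest DKO-moderate library.

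*Dcn* and *Lum*, neighbors on chromosome 10, encode decorin and lumican, small leucine-rich proteoglycans that bind collagen fibrils. *Dcn* had 28.7, 4.71, 73.4, and 30.9 CPM in DKO-severe and 1.16, 8.43, 0.356, and 2.003 CPM in DKO-moderate. *Lum* had 19.997, 1.16, 25.1, and 11.6 CPM in DKO-severe and 0.151, 1.29, 0.261, and 1.41 CPM in DKO-moderate. For both genes DKO-severe 2 was the lowest of its group and fell within the range of DKO-moderate.

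*Hapln1*, whose product links hyaluronan to proteoglycans, had 31.3, 10.3, 131, and 9.99 CPM in DKO-severe. *Thbs2*, a thrombospondin of connective tissue, had 4.82, 3.59, 48.6, and 31.9 CPM, and *Col12a1*, a collagen that decorates fibrils, 2.94, 14.3, 36.0, and 4.45 CPM. *Spon1*, which encodes F-spondin of the nervous system, had 37.8, 30.8, 40.5, and 109 CPM. Thus the library with the highest level differed from gene to gene within the class.

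Transcription factors made up 10 members. *Msc* (chromosome 1, 14753346 to 14755992, minus strand), the basic helix-loop-helix repressor musculin, had 85.8, 3.75, 60.7, and 176 CPM in DKO-severe, 1.66, 0.531, 0.498, and 2.52 CPM in DKO-moderate, and 3 reads in WT. The groups did not overlap, but DKO-severe 2 was far closer to DKO-moderate than to the other DKO-severe libraries. *Twist1*, a factor of mesenchyme, had 14.4, 8.13, 12.001, and 16.3 CPM in DKO-severe and 5.14, 8.63, 1.80, and 2.11 CPM in DKO-moderate. *Twist2*, its sister gene, had 10.8, 6.08, 23.6, and 36.0 CPM in DKO-severe and 1.01, 10.1, 2.06, and 12.1 CPM in DKO-moderate. For both *Twist* genes the groups overlapped, and all 8 DKO libraries were above 1 CPM.

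*Meis2* (chromosome 2, 115863064 to 116065839, minus strand), a homeobox factor with roles in limb and nervous system development, was the member highest in DKO-moderate. It had no read in WT, 1.61, 40.5, 3.96, and 59.9 CPM in DKO-moderate, and 19.6, 8.96, 34.0, and 10.04 CPM in DKO-severe. The DKO-moderate mean was 146% of the DKO-severe mean, and 84.6% without DKO-moderate 4. The noncoding gene 2700033N17Rik, 379 bases upstream on the same strand, had means of 0, 2.31, and 1.15 CPM in WT, DKO-moderate, and DKO-severe. *Osr2* and *Foxf2*, factors of mesenchyme, *Barx2*, a homeobox factor of epithelium, *Erg*, an ETS factor of endothelium and blood, *Zfp105*, and *Hdx* completed the class, with DKO-severe means of 1.66 to 21.3 CPM.

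**Figure D2:**
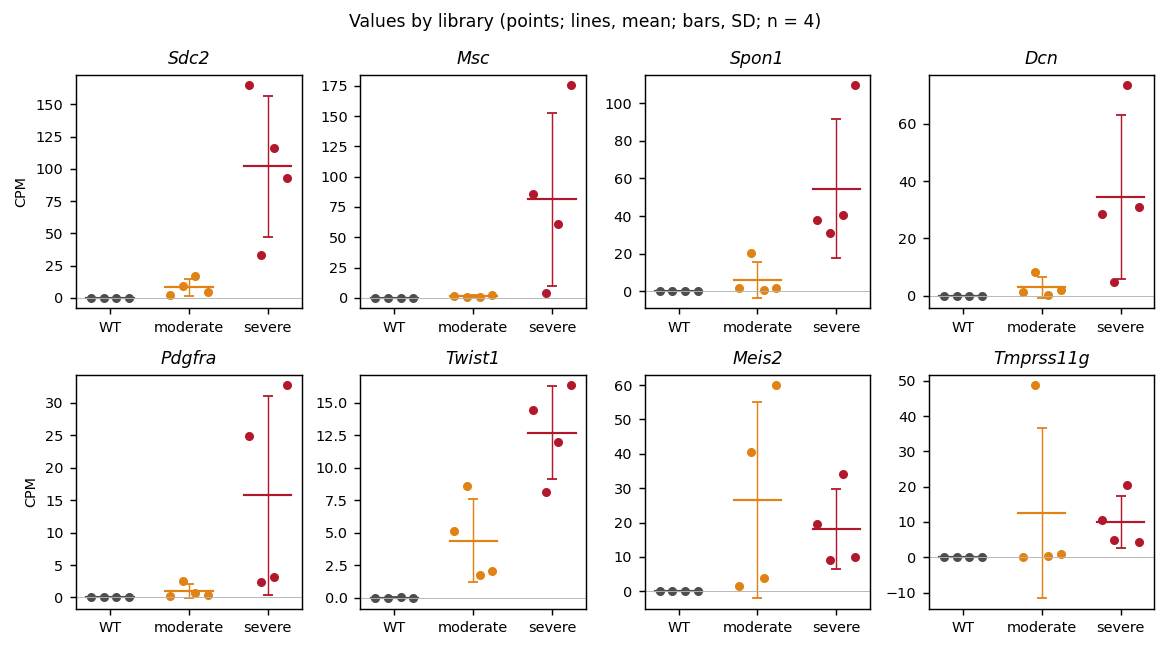
CPM by library for 8 members, with 1 point per library, a line at the group mean, and bars of 1 SD (n = 4). *Sdc2* and *Msc* separate the DKO groups, while in *Meis2* DKO-moderate 2 and 4 (40.5 and 59.9 CPM) and in *Tmprss11g* DKO-moderate 2 (48.7 CPM) exceed every DKO-severe library.

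Secreted signals numbered 6. *Rspo2*, an R-spondin that strengthens Wnt signals, had 31.5, 11.4, 37.8, and 41.7 CPM in DKO-severe and 0.126, 5.84, 1.80, and 0.433 CPM in DKO-moderate, without overlap. *Mstn* encodes myostatin, an inhibitor of muscle growth, and had 10.9, 30.8, 13.6, and 2.11 CPM in DKO-severe, with DKO-severe 2 the highest. *Dact2*, a modulator of Wnt and TGF-β signals, had 12.6, 2.12, 13.0, and 22.6 CPM in DKO-severe but at most 0.325 CPM in DKO-moderate. *Ndp*, a Frizzled ligand, had 1.98, 2.39, 2.14, and 3.89 CPM in DKO-severe and 0.403, 5.97, 0.380, and 3.82 CPM in DKO-moderate. *Ptn* and *Nrg1*, growth factors of the nervous system, had DKO-severe means of 11.8 and 2.63 CPM.

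Receptors and their partners numbered 12. *Pdgfra*, the alpha receptor for platelet-derived growth factor, had 24.9, 2.36, 3.13, and 32.6 CPM in DKO-severe and 0.252, 2.55, 0.712, and 0.379 CPM in DKO-moderate. It was high in DKO-severe 1 and 4 only, and DKO-moderate 2 exceeded DKO-severe 2. *Egfr*, the epidermal growth factor receptor, had 10.97, 2.66, 33.7, and 2.75 CPM in DKO-severe. *Adra1b*, an adrenergic receptor, had 19.9, 2.52, 30.6, and 39.6 CPM, and *Htr7*, a serotonin receptor, 22.8, 11.95, 12.3, and 28.6 CPM. *Sorcs1*, *Neto1*, *Epha7*, *Rasgrf1*, *Dok6*, *Tpbg*, *Gnai1*, and *Ptprg* had DKO-severe means of 2.37 to 19.2 CPM. In 9 of these 12 genes at least 1 DKO-moderate library reached the range of DKO-severe. The same held for 38 of all 82 members. Every DKO-moderate library was below every DKO-severe library in the other 3 genes of the class, against 13.4% of all tested genes.

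Cell adhesion genes numbered 7. *Cdh2*, the N-cadherin of neurons and mesenchyme, had 33.7, 16.9, 62.4, and 23.7 CPM in DKO-severe and 1.18, 10.8, 3.11, and 16.9 CPM in DKO-moderate. *Cntn5*, a contactin of neurons, had 15.3, 19.8, 10.4, and 9.16 CPM in DKO-severe and 0.931, 23.2, 4.18, and 14.5 CPM in DKO-moderate, so that DKO-moderate 2 was the highest of all. *Mpzl2* and *Cldn7* of epithelia, *Fat4*, *Cntnap2*, and *Gja1* (connexin 43) had DKO-severe means between 3.11 and 24.5 CPM. The 10 genes of the cytoskeleton and its scaffolds were *Dpysl3*, *Cobl*, *Arhgap44*, *Rhou*, *Ank3*, *Capn6*, *Etl4*, *Anxa8*, *Frmd5*, and *Cttnbp2*. *Dpysl3*, a collapsin response mediator of growing axons, was the highest, with 33.3, 20.5, 55.3, and 10.5 CPM. *Anxa8*, an annexin, was the lowest of all members in DKO-moderate, with 9 reads in all against 2.05 to 13.0 CPM in DKO-severe.

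Skin and mucosal genes numbered 5. *Ivl*, a protein of the cornified envelope, had 9.54, 4.05, 13.1, and 19.7 CPM in DKO-severe and 0.201, 2.46, 0.570, and 2.06 CPM in DKO-moderate, without overlap. *Lce1a1*, another envelope gene near *Ivl*, belongs to a family of close copies, which makes its count uncertain. It had 3.45, 9.06, 3.73, and 2.75 CPM in DKO-severe, while its neighbor *Lce1b* had a mean of 0.104 CPM. *Tmprss11g* (chromosome 5, 86485876 to 86518600, minus strand), a membrane serine protease of epithelia, had 10.5, 4.85, 20.4, and 4.43 CPM in DKO-severe and 0.151, 48.7, 0.356, and 0.893 CPM in DKO-moderate. Without DKO-moderate 2, its DKO-moderate mean dropped from 125% to 4.65% of the DKO-severe mean. *Muc16*, a mucin, and *Alox12b*, a lipoxygenase of the epidermis, had DKO-severe means of 9.10 and 2.23 CPM.

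Genes of synapses, channels, and vesicles numbered 4. *Pex5l*, a regulator of HCN channels, had 49.3, 14.1, 55.2, and 29.8 CPM in DKO-severe. *Slc17a6*, a vesicular glutamate transporter, had 2.73, 11.3, 3.13, and 3.60 CPM, with *Cacna2d3* and *Syt7* at means of 6.94 and 2.56 CPM. The 10 other proteins included *Tmem45a*, at 39.4, 18.0, 69.3, and 59.3 CPM, and *Sphkap*, an anchor of protein kinase A, at 32.3, 41.7, 22.4, and 47.3 CPM in DKO-severe. *Moxd1*, *Prkcdbp* (*Cavin3*), *Zcchc14*, *Hspb1*, *Sln* of muscle, *Prss57*, *Gstm5*, and *C1s* had means between 1.32 and 12.3 CPM. *C1s* has a near-identical copy, so its count is uncertain. *Prss57* is a protease of neutrophils, and had 4.89, 1.66, 4.24, and 1.03 CPM in DKO-severe and 0.302, 0.232, 0.119, and 0.514 CPM in DKO-moderate. Its highest and lowest libraries in both groups, DKO-severe 1 and 4 and DKO-moderate 4 and 3, were also those of the neutrophil marker sum. The middle libraries were ordered the other way. DKO-severe 2 had 963 CPM of these markers and 1.66 CPM of *Prss57*, and DKO-severe 3 had 49.8 and 4.24 CPM. DKO-moderate 2 had 18.5 and 0.232 CPM, and DKO-moderate 1 had 16.4 and 0.302 CPM. In DKO-moderate the marker sum was mostly *Mmp9* (mean 16.5 CPM), with *Mpo* next (mean 2.39 CPM). The part of neutrophils in the level of *Prss57* was not tested. The 7 genes without a known function, *Wdr93*, D630003M21Rik, *Gm4858*, *Gm19510*, 4921504A21Rik, *Ccdc74a*, and E530011L22Rik, had means of 1.56 to 7.79 CPM. *Ccdc74a* starts 1642 bases downstream of *Smpd4*, which is on the same strand and was at a mean of 40.4 to 54.2 CPM in each group. E530011L22Rik overlaps 2 genes of the opposite strand. *Nktr* had means of 189 to 211 CPM in the groups, whereas *Zfp651* went from a mean of 0.396 CPM in WT to 5.11 CPM in DKO-moderate and 15.7 CPM in DKO-severe. Reads were counted by strand, and whether a small share of *Zfp651* reads reached the member, at 1.56 CPM in DKO-severe, was not tested.

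**Figure D3:**
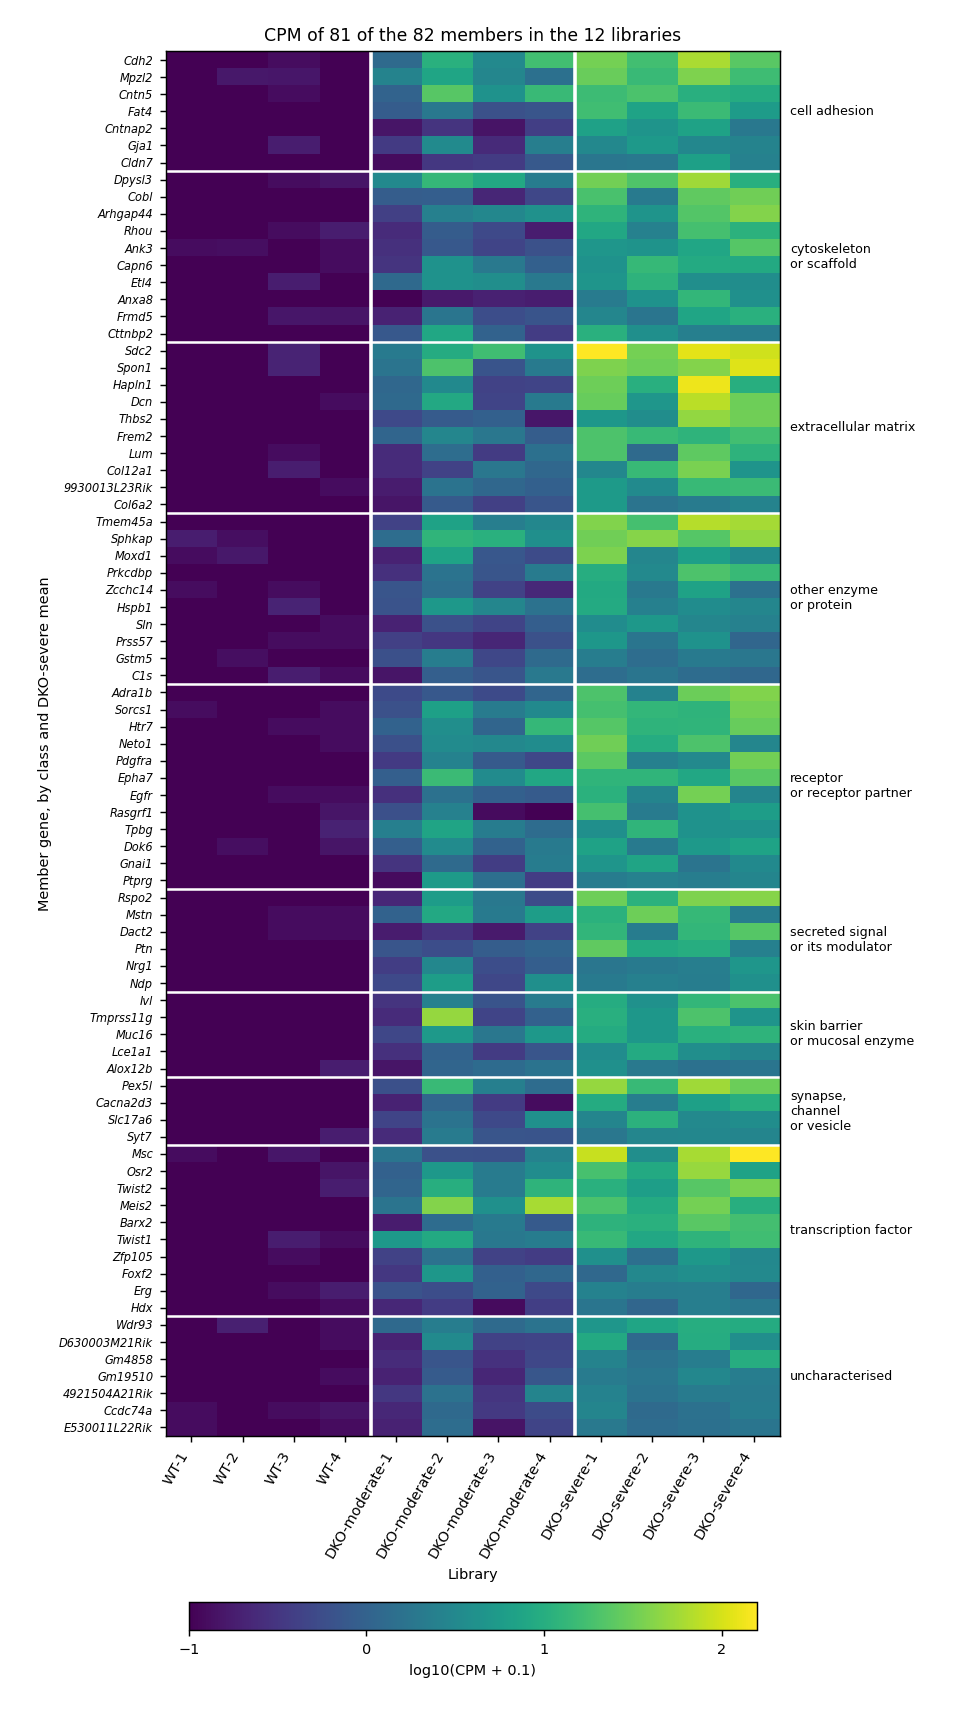
Level of 81 of the 82 members (rows, by class and then by DKO-severe mean) in each library (columns), as log10 of CPM + 0.1. The WT columns are uniformly dark, the DKO-severe columns bright, and the DKO-moderate columns uneven, with DKO-moderate 2 the highest of its group for 54 of all 82 members and DKO-moderate 1 the lowest for 52.

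By the tissue in which a gene is usually made, 23 members were assigned to the nervous system, 16 to mesenchyme, 12 to epithelium, 3 to muscle, 2 to endothelium and blood, and 1 to the germline, with 15 of broader expression and 10 not assigned. Median DKO-severe means were 15.1 CPM for mesenchyme, 14.2 CPM for the nervous system, and 9.57 CPM for epithelium. Markers of stroma, epithelium, and neurons were higher in sum in DKO-severe than in WT, though some of their genes stayed at or near 0. The endothelial list was not, with 197 to 253 CPM in WT and 179 to 207 CPM in DKO-severe. Most of this was 1 gene, *Pecam1*, with 195 to 252 CPM in WT and 178 to 206 CPM in DKO-severe. The germline list was lower, with 5.89 to 6.28 CPM in WT and 1.79 to 2.63 CPM in DKO-severe. Here too 1 gene, *Brdt*, made most of the sum, with 5.34 to 6.04 CPM in WT and 1.31 to 1.93 CPM in DKO-severe. The 5 stromal genes of a list of 8 that were not members summed to 0.238 to 0.389 CPM in WT, 0.514 to 1.63 CPM in DKO-moderate, and 1.66 to 7.73 CPM in DKO-severe, with no overlap between groups. Of the list, *Dcn*, *Lum*, and *Pdgfra* were members, whereas *Ccl19* had no read in DKO-severe, *Col1a2* at most 0.0504 CPM, and *Col3a1* at most 0.438 CPM. *Col1a1*, the main collagen chain of fibroblasts, had 0.208 to 0.389 CPM in WT and 0.101 to 5.44 CPM in DKO-severe. *Pdgfrb* had 0.531 to 4.76 CPM in DKO-severe and at most 0.0819 CPM in WT.

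The 8 epithelial genes, none of them a member, summed to 2.90 to 4.31 CPM in WT, 6.55 to 15.8 CPM in DKO-moderate, and 19.13 to 62.3 CPM in DKO-severe, again with no overlap. Of the 5 tested, 2 were higher in DKO-moderate than in WT (edgeR), against 12.3% of all tested genes. In DKO-severe, 3 were higher than in DKO-moderate (edgeR), against 9.41%. *Krt14*, *Krt15*, and *Krt19* had no read in any library. *Krt8*, a keratin of simple epithelia, had 0.0342 to 25.2 CPM in DKO-severe, and *Krt5*, a keratin of basal cells, 0.273 to 2.22 CPM, and both were higher there than in DKO-moderate (edgeR). *Epcam* had 1.90 to 3.06 CPM in WT and 11.9 to 43.1 CPM in DKO-severe, and *Krt18* at most 0.149 CPM in WT and 4.12 to 17.1 CPM in DKO-severe. Among 11 neuronal markers listed, none was a member. Of the 7 tested, 2 were higher in DKO-moderate than in WT (edgeR), against 12.3% of all tested genes. In DKO-severe, 1 was higher than in DKO-moderate (edgeR), against 9.41%. *Tubb3*, a neuronal tubulin, went from a mean of 0.989 CPM in WT to 3.24 CPM in DKO-moderate and 4.81 CPM in DKO-severe, and *Stmn2* from 0.279 to 1.62 and 0.801 CPM. *Syt1*, of synaptic vesicles, had at most 0.353 CPM in DKO-severe, *Gap43* had no read, and *Nefl* and *Dcx* had 1 read each in DKO-severe. The summed neuronal list was 2.58 to 4.04 CPM in WT, 4.60 to 13.1 CPM in DKO-moderate, and 7.64 to 9.16 CPM in DKO-severe. The part of cells of these tissues in the members' levels was not tested. None of the other 17 marker lists, which covered blood cells, liver, pancreas, endothelium, germline, and imprinted genes, held a member.

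**Figure D4:**
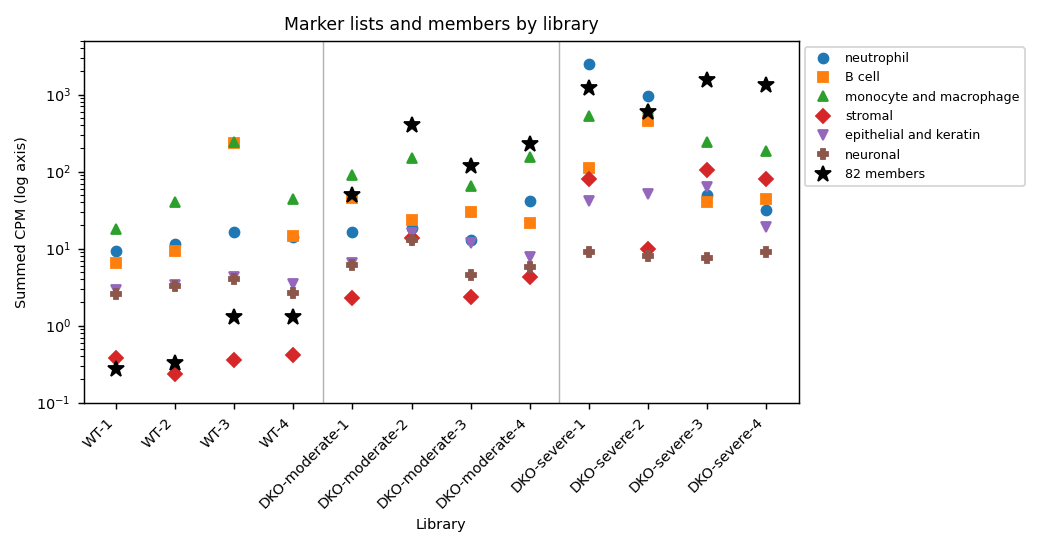
Summed CPM of 6 marker lists and of the 82 members in each library, on a log axis. In DKO-severe 1, 2, 3, and 4, neutrophil markers sum to 2478, 963, 49.8, and 31.9 CPM and the members to 1233, 601, 1528, and 1323 CPM. The stromal list, which shares 3 genes with the members, is lowest among DKO-severe libraries in DKO-severe 2 (9.89 CPM).

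DKO-severe libraries were uneven too. The ratio of the highest to the lowest DKO-severe library had a median of 3.79 over the members, was above 10 for 15 members, and below 2 for 10 members. DKO-severe 2 was the lowest library for 44 members and the highest for 12, among them *Mstn*, *Slc17a6*, *Tpbg*, and *Lce1a1*. DKO-severe 3 was the highest for 27 members and DKO-severe 4 for 25. DKO-severe 2 also had the highest B cell marker sum of all libraries.

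The DKO-moderate libraries, which the rule did not use, give the level of the same genes in the milder group. All 82 members had more than 4 reads over the 4 DKO-moderate libraries, the limit that defined silence in WT, and the fewest were the 9 reads of *Anxa8*. Of the other 11315 genes silent in WT, 8.59% passed this limit. Of the 1584 among these with more than 4 reads in DKO-severe, 49.9% passed. At 1 CPM or more in every DKO-moderate library were 11 members, *Cdh2*, *Dpysl3*, *Etl4*, *Meis2*, *Mpzl2*, *Sdc2*, *Sphkap*, *Tpbg*, *Twist1*, *Twist2*, and *Wdr93*. No other gene silent in WT did so, and without DKO-moderate 1, the lowest library, the number of members was 23. At the other end, 18 members reached 1 CPM in none of the DKO-moderate libraries.

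In edgeR's quasi-likelihood test, 79 of 82 members were higher in DKO-moderate than in WT, against 12.3% of all 16035 genes tested. The members' WT side was low by choice, so this count is not independent evidence. *Anxa8*, *Dact2*, and *Rasgrf1* did not pass. *Rasgrf1*, a Ras exchange factor of neurons, had 0.503, 2.42, 0.0237, and 0 CPM in DKO-moderate. For 77 members every DKO-moderate library was above every WT library, against 16.8% of all tested genes.

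The level reached in DKO-moderate was usually a small share of that in DKO-severe. The DKO-moderate mean was a median of 14.3% of the DKO-severe mean, under 10% for 28 members, and at least 50% for 12. Without DKO-moderate 2 the median was 10.2%, and 4 members were at 50% or more. Shares were lowest for *Anxa8* (1.05%), *Dact2* (1.33%), *Msc* (1.60%), *Thbs2* (2.30%), and *Cobl* (2.60%), and highest for *Meis2* (146%), *Tmprss11g* (125%), *Ndp* (102%), *Cntn5* (78.1%), and *Ptprg* (75.5%). By class, the median share was 8.67% for matrix genes, 19.6% for receptors, and 23.8% for transcription factors.

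Every DKO-moderate library was below every DKO-severe library for 44 members, against 13.4% of all tested genes, and the groups overlapped for the other 38. In all 38 the overlap involved DKO-moderate 2 or 4, and DKO-moderate 1 or 3 reached the DKO-severe range in 3. Without DKO-moderate 2 the number without overlap was 64. No member had all DKO-moderate libraries above DKO-severe.

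By edgeR, 50 members were lower in DKO-moderate than in DKO-severe, against 9.41% of all tested genes, and none was higher. The DKO-severe side was high by choice, so this count too is a description. It held all 11 matrix genes, 8 of 10 cytoskeletal genes, 5 of 10 transcription factors, and 5 of 12 receptors. The log2 difference was 3.56 for *Sdc2* (standard error 0.63, edgeR adjusted p = 0.00526), 5.85 for *Msc* (standard error 0.95, edgeR adjusted p = 0.00402), 6.14 for *Dact2* (standard error 0.76, edgeR adjusted p = 0.00203), and 6.40 for *Anxa8* (standard error 0.86, edgeR adjusted p = 0.00362). For *Meis2* it was -0.59 (standard error 0.94, edgeR adjusted p = 0.683), with DKO-moderate the higher. Without DKO-moderate 4 its sign turned (0.22, edgeR adjusted p = 0.887), as it did in limma voom (1.97, adjusted p = 0.0413). With terms for the neutrophil and B cell marker levels, 11 members passed, against 1.02% of all tested genes, and genes called in either direction fell from 3217 to 183. The 11 held *Msc*, *Dact2*, *Anxa8*, *Thbs2*, and *Lum* but not *Sdc2* (log2 difference 3.51, edgeR adjusted p = 0.0878). The median log2 difference of the members was 2.73 without and 2.22 with these terms. Without DKO-moderate 3, 33 members passed, and genes called in either direction were 1815.

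**Figure D5:**
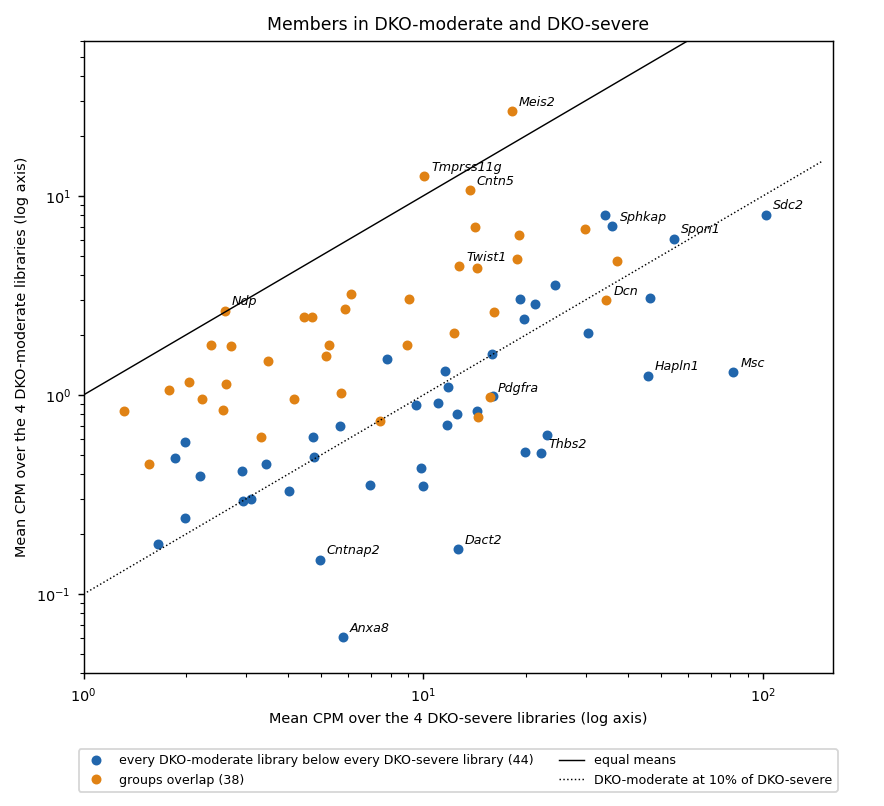
Mean CPM of each member over 4 DKO-severe libraries (x) and over 4 DKO-moderate libraries (y), both on log axes. Of the 82 points, 3 lie above the line of equal means (*Meis2*, *Tmprss11g*, and *Ndp*), 28 lie below the dotted line of 10%, and colors mark the 44 members without and the 38 with overlap between the groups.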

How the data were processed

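RNA sequencing measured transcripts of sorted CD4+ YFP(FOXP3)- T cells in 12 libraries, 4 for each of the 3 groups. The authors aligned reads to mm10 with STAR 2.7.11, kept reads with a unique position, and deposited counts of reads per gene from htseq-count in its reverse-stranded mode, which keeps antisense genes apart and drops reads shared by identical copies. The gene annotation is not given in the sources used here. Records not assigned to a gene (18.5% to 23.7% of a library) were left out of library totals.

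CPM for the rule and for levels used reads on genes as the total. For the DKO-moderate comparisons, 1 model of all groups was fitted in edgeR 4.0.16 (TMM, quasi-likelihood F test; R 4.3.3) to the 16035 genes with at least 10 reads over the libraries of a condition, and p-values were adjusted by Benjamini-Hochberg and called under 0.05. Standard errors are the log2 difference divided by the square root of F. The methods of the study name DESeq2, which was run as an alternative (1.42.0), as were limma voom (3.58.1), other scalings, filters, thresholds, a replicate block, terms for neutrophil and B cell markers, and leaving out each library. Tests were tried on simulated data. The lowest chi-square per degree of freedom between libraries of a group was 21.6, so none was a copy.

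Positions and exon lengths came from GENCODE M21, matched by symbol for 79 members and by an older symbol for 3. Tables and plots were made in Python 3.11.15. The members, gene lists, and tests were chosen with earlier results of these data known. Named members are the 20 highest in DKO-severe and in DKO-moderate, the 5 highest and 5 lowest in relative level, those in a marker list, those nearest the limits, and neighbors within 100 kb, 39 in all. The other members are named within their class, which was done after their values had been seen, except 1 member that is included in the counts of the report but not reported here on its own.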

Additional observations from a re-analysis of the deposited data

Results flagged for a closer look

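Among the 162 groups of 4 DKO libraries examined over 81 members, 18 held a library far from the other 3 for its gene, where chance flags about 1 in 20 groups. DKO-moderate 2 was such a high library for 7 members. Its value was 48.7 CPM for Tmprss11g (next highest 0.893 CPM), 20.3 CPM for Spon1, 14.6 CPM for Pex5l, 8.06 CPM for Cttnbp2, 7.03 CPM for Moxd1, 3.28 CPM for D630003M21Rik, and 1.53 CPM for Zfp105. DKO-severe 2, the library with the most B cell markers, stood high for 5 members, with 12.3 CPM for Tpbg, 11.6 CPM for Etl4, 11.3 CPM for Slc17a6, 9.06 CPM for Lce1a1, and 5.35 CPM for Gja1. DKO-severe 4 was high for Spon1 (109 CPM, next highest 40.5 CPM) and Gm4858 (9.81 CPM), DKO-severe 1 for Moxd1 (36.6 CPM), and DKO-severe 3 for Cldn7 (6.48 CPM). Low libraries were DKO-severe 1 for Syt7 (1.78 CPM) and DKO-moderate 1 for Neto1 (0.503 CPM). The part of library makeup in these values was not tested.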

How the results depend on the processing

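The rule gave 34 genes with no WT read allowed and 133 with a minimum of 0.5 CPM in DKO-severe, and the other 4 settings of its limits and scaling gave 55 to 123. Leaving out a library gave 83 to 124 genes, the most without WT 3, and leaving out DKO-severe 1 and 2 together, chosen after seeing the data, gave 129, by construction a looser rule. Members on in every DKO-moderate library were 24 at 0.5 CPM, 1 at 2 CPM, and 11 to 23 without 1 library, the most without DKO-moderate 1. More than 10 DKO-moderate reads were found for 81 members. Members higher in DKO-moderate than in WT were 55 to 82 over the other tests, scalings, filters, and thresholds, the fewest in limma voom, and 69 to 80 without 1 library. All genes called in either direction numbered 2734 in the main fit, 1142 to 3911 over these settings, and 1616 to 2920 without 1 library. Members lower in DKO-moderate than in DKO-severe were 78 in limma voom, 22 at an adjusted p under 0.01, 11 with terms for neutrophil and B cell markers, 33 to 59 without 1 library, and 44 to 57 otherwise, apart from the replicate block below. For this comparison, all genes called in either direction numbered 3217 in the main fit and 6126 in limma voom. They numbered 926 at an adjusted p under 0.01, 183 with these terms, 1646 to 3670 without 1 library, and 1411 to 4152 otherwise. No alternative called a member in the opposite direction in edgeR, DESeq2, or limma.

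The replicate numbers did not pair the libraries: residuals of same-numbered libraries correlated with a median of -0.034 (-0.27 to 0.21). With the replicate block, 72 members were higher in DKO-moderate than in WT and 41 were lower in DKO-moderate than in DKO-severe. All genes called in either direction were 2201 and 2321 in these comparisons. The log2 difference of Meis2 turned to 0.32 under the replicate block and to 1.97 in limma voom, and ranged from -1.06 to 0.22 without 1 library, turning without DKO-moderate 4. The cause was not tested.

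With 4 libraries per group, and ratios of 3.79 between the highest and lowest DKO-severe library for the median member, small differences between the DKO groups are beyond the reach of these data. Levels under 0.0206 CPM over the pooled WT libraries cannot be told from 0.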

Other observations

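Beyond the members, a larger number of genes silent in WT were on in some DKO-severe libraries. Of the 11397 genes silent in WT, 153 reached 1 CPM in 1 DKO-severe library, 87 in 2, and 52 in 3, so that 292 genes were on in part of the group against 82 in all of it. In DKO-moderate, 69 of the genes silent in WT reached 1 CPM in 1 library, 38 in 2, 16 in 3, and 11 in 4. Among those on in part of DKO-severe were the keratin genes Krt8 (1 read in WT) and Krt5 (no read in WT).

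Some markers of basophils were higher in some DKO libraries. Prss34 and Mcpt8, basophil proteases, had at most 0.0298 and 0.191 CPM in WT, 0.166 to 16.1 and 0.0712 to 10.2 CPM in DKO-moderate, and 0.529 to 9.23 and 0.656 to 5.26 CPM in DKO-severe. Both were called higher in DKO-moderate than in WT, and neither differed past the threshold between DKO-moderate and DKO-severe. The list held 9 mast cell and basophil markers, of which 7 were tested. Of these, 4 were higher in DKO-moderate than in WT (edgeR), against 12.3% of all tested genes. In DKO-severe, 1 was higher than in DKO-moderate (edgeR), against 9.41%. Ms4a2, Fcer1a, and Hdc were not called in either comparison.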
